A study of Mus musculus with 6 samples.

Results

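Transcripts of 41 genes that build and run the mitotic spindle were followed in whole mammary tumours of mice dosed with vehicle or with TMP195, an inhibitor of the class IIa histone deacetylases. The genes were taken by name, as rows of the array whose annotation gives 1 gene, with the brightest row kept for a gene that had several. Of the 41 genes, 40 were measured, out of 19937 genes on the array. Ccnb1, which encodes cyclin B1, had no such row and was not analysed here. All 40 measured genes had a lower mean under TMP195, with a median log2 difference of -0.20, but in none were the groups apart. The genes shared their order of tumours. Most were high in vehicle tumour 2 and in TMP195 tumour 3, low in TMP195 tumour 2, and close to their mean in the other 3 tumours. TMP195 tumours 2 and 3 lay further apart than the 2 group means in every one of the 40 genes. Single tumours vary more than means of 3, and this pair was picked after the values had been seen. The share of all genes for which the same holds was not counted.

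The tumours came from 6 female mice of the FVBN strain, 3 in each group, and every mouse, controls included, carried the MMTV-PyMT transgene. This transgene puts the polyoma virus middle T oncogene under a mammary tumour virus promoter, so that tumours arise in the mammary epithelium. TMP195 was injected into the abdomen once a day at 50 mg/kg, and control mice received DMSO, the vehicle. The descriptions give the length of dosing as 5 days in one place and as 2 weeks in another. The mice were 75 to 90 days old when their tumours were assessed, before dosing began. Since 1 tumour was taken per mouse and run on 1 Affymetrix array, a group of 3 holds 3 animals.

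Mitotic genes are transcribed late in the cell cycle and their mRNAs are scarce in cells that do not divide, which makes them common markers of proliferation. In resting cells and in early G1 the DREAM complex represses them, and in G2 the MuvB core joins B-MYB and FOXM1 to activate them. DREAM and MuvB act through a short promoter element, the cell cycle genes homology region (CHR), often found next to CCAAT boxes that bind NF-Y. In a whole tumour, fewer dividing cells and less mRNA per dividing cell cannot be told apart.

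The promoters of these genes are shown first. Whether their elements bear on the order of tumours that the genes shared was not tested. RefSeq promoter windows of assembly GRCm38.p6, from 250 bases before to 50 after the start of transcription, held 33 of the 41 genes in 35 windows. The CHR was searched as TTTGAA or TTCGAA, the CCAAT box as CCAAT and the site of E2F factors as TTTGGCGC, TTTGCCGC, TTTCGCGC or TTTCCCGC, on both strands. A CHR was found in 28 of the 35 windows, or 80.0%, against 19.2% of all 32851 windows in the table. A CCAAT box was found in 27 windows, or 77.1%, against 37.4% of all, and both elements in 24, or 68.6%, against 7.52%. The E2F words were found in 3 windows, or 8.57%, against 2.26% of all. Further mitosis genes outside the 41 also held these elements often. A CHR was in 31 of their 51 windows, or 60.8%, a CCAAT box in 36, or 70.6%, and both in 23, or 45.1%. In the windows of DNA replication genes the order was different, with a CHR in 9 of 40 windows, a CCAAT box in 22 and an E2F word in 13. The CHR also lay close to the start: of 39 CHR matches in the windows of mitotic genes, 27 began within 50 bases of it, or 69.2%, against 25.2% of the 7260 matches in all windows. Ect2 and Prc1 each had 2 overlapping windows, so their sites were counted in both. In 10 of the 19 windows with several CCAAT boxes, neighbouring boxes were 31 to 37 bases apart, or 52.6%, against 13.9% of 3842 such windows in the table. That spacing was chosen after the positions had been seen. A match is a run of letters and not a measured binding site.

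Written out below, 5′ to 3′ along the gene with CHR and CCAAT matches in capitals, are the windows of Kif4 (chrX:100625815-100626114, plus strand), Ttk (chr9:83834439-83834738, plus strand), Cdc20 (chr4:118437294-118437593, minus strand), Bub1b (chr2:118597961-118598260, plus strand) and Racgap1 (chr15:99651607-99651906, minus strand). They are the windows of the 5 members with the smallest unadjusted p, among those described in full, that hold both elements. In reverse orientation a CCAAT box reads ATTGG and the CHR word TTTGAA reads TTCAAA.
Kif4: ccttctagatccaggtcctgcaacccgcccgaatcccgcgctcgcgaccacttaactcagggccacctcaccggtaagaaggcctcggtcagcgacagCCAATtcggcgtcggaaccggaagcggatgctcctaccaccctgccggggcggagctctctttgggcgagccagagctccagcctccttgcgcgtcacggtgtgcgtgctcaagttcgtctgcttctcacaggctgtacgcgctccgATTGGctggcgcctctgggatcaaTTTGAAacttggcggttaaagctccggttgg
Ttk: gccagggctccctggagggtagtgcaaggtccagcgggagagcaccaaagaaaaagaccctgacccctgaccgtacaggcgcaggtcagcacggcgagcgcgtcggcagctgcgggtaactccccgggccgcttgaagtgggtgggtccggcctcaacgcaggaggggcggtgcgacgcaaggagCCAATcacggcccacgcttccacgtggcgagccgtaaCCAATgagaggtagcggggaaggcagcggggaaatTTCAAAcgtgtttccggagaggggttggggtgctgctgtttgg
Cdc20: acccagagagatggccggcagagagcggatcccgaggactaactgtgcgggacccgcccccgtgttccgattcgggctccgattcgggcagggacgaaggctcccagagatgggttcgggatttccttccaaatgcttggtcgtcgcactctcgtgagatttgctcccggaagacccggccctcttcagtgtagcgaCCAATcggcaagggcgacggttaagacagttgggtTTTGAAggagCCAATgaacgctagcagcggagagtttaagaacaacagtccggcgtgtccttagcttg
Bub1b: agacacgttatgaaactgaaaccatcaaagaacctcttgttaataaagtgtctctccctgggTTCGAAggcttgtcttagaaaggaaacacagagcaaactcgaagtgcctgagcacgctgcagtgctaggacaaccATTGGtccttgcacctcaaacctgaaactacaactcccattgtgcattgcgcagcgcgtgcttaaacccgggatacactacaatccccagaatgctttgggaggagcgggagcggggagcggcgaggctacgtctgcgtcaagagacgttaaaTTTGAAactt
Racgap1: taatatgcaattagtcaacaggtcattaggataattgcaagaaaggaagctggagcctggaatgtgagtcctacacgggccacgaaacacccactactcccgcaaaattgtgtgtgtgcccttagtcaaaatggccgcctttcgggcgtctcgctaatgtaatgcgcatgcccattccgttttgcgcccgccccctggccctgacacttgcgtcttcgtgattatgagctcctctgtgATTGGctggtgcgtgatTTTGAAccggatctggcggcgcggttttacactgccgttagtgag
Counted in bases from the start of transcription, the CCAAT boxes of Ttk began at -65 and -28 and its CHR, in reverse, at 8. Cdc20 had boxes at -53 and -8 and the CHR between them at -18. In Racgap1 a single reverse box at -12 was followed by a CHR at 6. Bub1b had its reverse box at -113 with a CHR on each side, at -188 and at 41. Kif4 had boxes at -152 and, in reverse, at -5, with the CHR at 20.

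**Figure D1:**
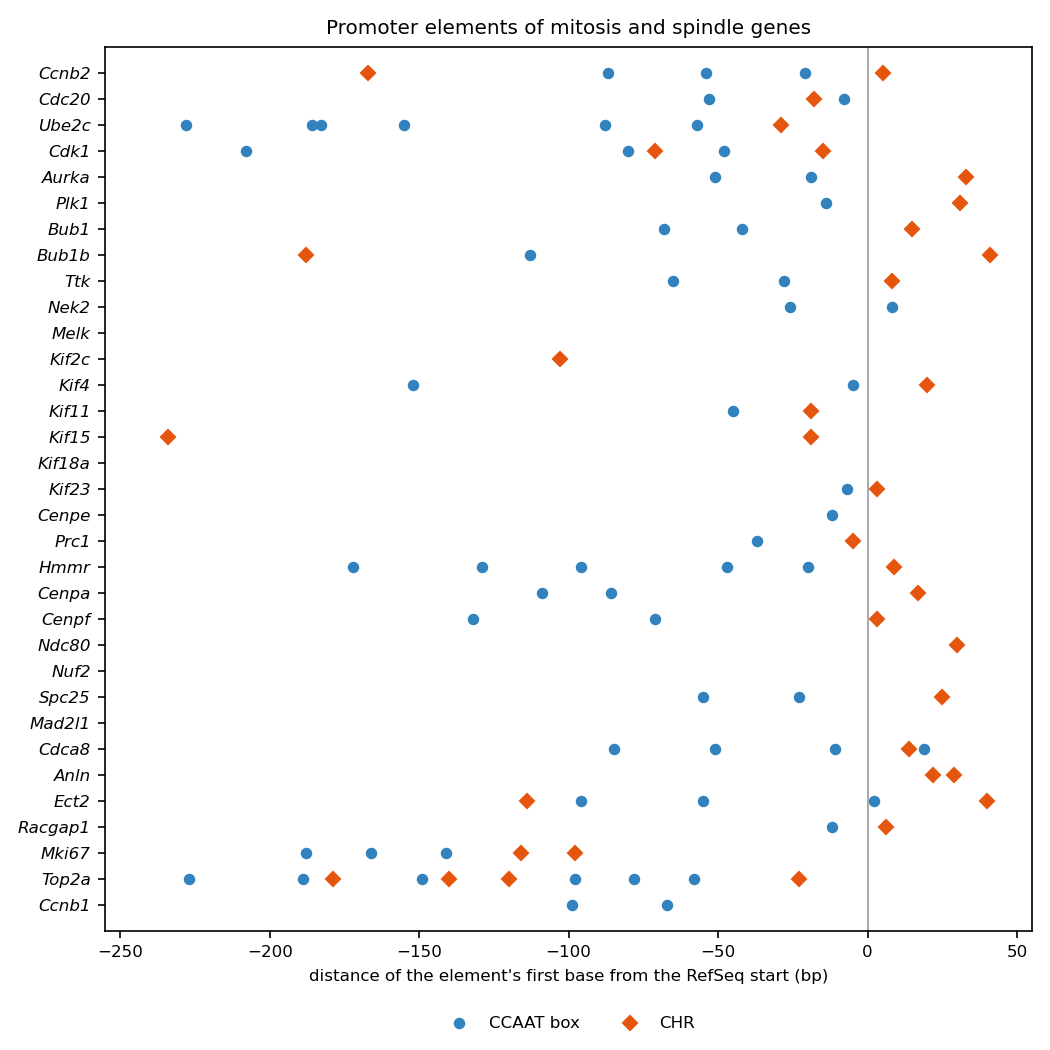
Position of each CHR match (orange diamonds) and CCAAT match (blue circles) in the first listed RefSeq promoter window of 33 mitosis and spindle genes; the x axis is the distance of the element's first base from the start of transcription in base pairs, and each row is a gene. Of 39 CHR matches in all 35 windows, 27 lie within 50 bases of the start, while CCAAT boxes spread further upstream, with a median of -66. Ect2 and Prc1 have 2 overlapping windows each, so their sites count in both.

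Across the 40 measured genes, each gene's log2 intensity was set against its own mean over the 6 tumours. The median of these deviations was -0.0046 (tumour 1), 0.38 (tumour 2) and -0.070 (tumour 3) under vehicle and -0.071, -0.47 and 0.24 in the same order under TMP195. Vehicle tumour 2 was the highest of the 6 in 33 genes, where it was the highest in 24.2% of all genes on the array. TMP195 tumour 2 was the lowest in 39 genes, against 22.4% of all genes, and in 32 genes both held, against 8.76%. TMP195 tumour 3 was among the 2 highest tumours in all 40 genes, against 34.4% of all genes, and lay above vehicle tumours 1 and 3 in all 40, against 36.0%. The remaining tumours, vehicle tumours 1 and 3 and TMP195 tumour 1, lay close together, with a median range of 0.12 over the 40 genes. These counts describe a pattern that was chosen after the values had been seen, and the 40 genes share the same 6 arrays.

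**Figure D2:**
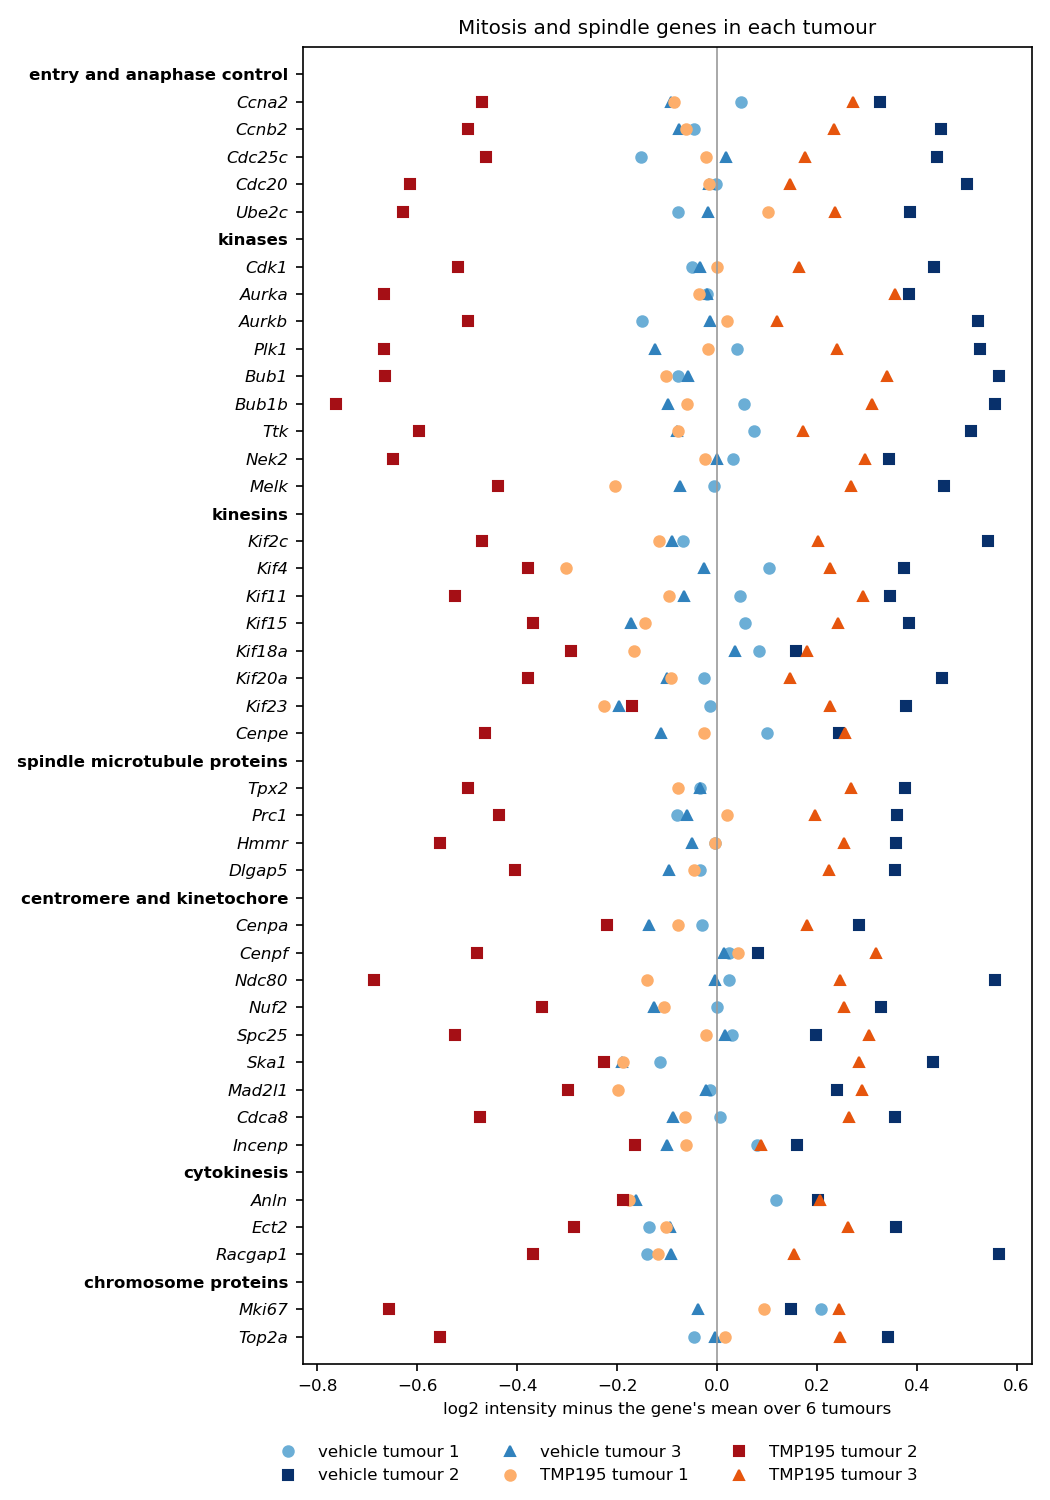
Log2 intensity of each of the 40 measured mitosis and spindle genes in each tumour, minus the gene's mean over the 6 tumours (x axis, log2 units), with genes grouped by role on the y axis; blue symbols are vehicle tumours and red to orange symbols TMP195 tumours. The dark blue squares (vehicle tumour 2) form the right edge in 33 genes and the dark red squares (TMP195 tumour 2) the left edge in 39, while orange triangles (TMP195 tumour 3) lie to the right among the blue symbols.

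The question the groups address is whether dosing with TMP195 altered these transcripts. No member passed an adjusted p of 0.05 in limma, which called 0.0% of all 19937 genes, and the smallest adjusted p among members was 1.00. None passed an unadjusted p of 0.05 either, where limma gave 1.34% of all genes as lower and 1.18% as higher. The unadjusted p of members ran from 0.151 to 0.695. All 40 differences were below 0, as were 50.5% of all genes, and they ran from -0.39 in Ndc80 to -0.079 in Cenpa. In 0 of the 40 genes did the groups fail to overlap, where 3.21% of all genes were lower and 3.47% higher without overlap. The median over all genes was -0.0014. All 40 intervals held 0: the median interval ran from -0.71 to 0.30, which spans falls much larger than the median difference as well as rises.

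The spread within groups was wide in these genes. Their residual standard deviation between tumours of a group had a median of 0.32 on the log2 scale, compared with 0.16 over all genes, and it exceeded the all-gene median in 39 of 40. Within the TMP195 group, tumour 3 exceeded tumour 2 by a median of 0.71, and within the vehicle group tumour 2 exceeded the mean of tumours 1 and 3 by a median of 0.43. Vehicle tumour 2 and TMP195 tumour 2 were 0.85 apart in the median gene, and 37 of 40 genes were at least 0.5 higher in the first, against 7.85% of all genes.

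The group difference depended on vehicle tumour 2 and TMP195 tumour 2. With both left out, which left 2 tumours a group, 38 of the 40 genes had a higher mean under TMP195, against 50.7% of all genes, and the median difference turned to 0.13. Kif4 (-0.077) and Kif18a (-0.052) were the 2 genes still lower, and 0 of the 38 had an unadjusted p under 0.05 in limma, where 1.54% of all genes did on that side. These tumours were picked because they held the extremes of most members, so leaving them out was bound to raise most differences. The share of all genes is therefore no like baseline. The same limit applies to every value given below without these tumours. Without TMP195 tumour 2 alone the median was -0.023 with 24 of 40 lower, and without vehicle tumour 2 alone it was -0.065 with 35 lower. Leaving out TMP195 tumour 3 widened it to -0.36. Array weights, by which limma gives less weight to arrays that deviate from their group, gave a median of 0.00728 with 16 of 40 lower. Median centring of the arrays and cyclic loess kept all 40 lower, with medians of -0.20 and -0.20.

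**Figure D3:**
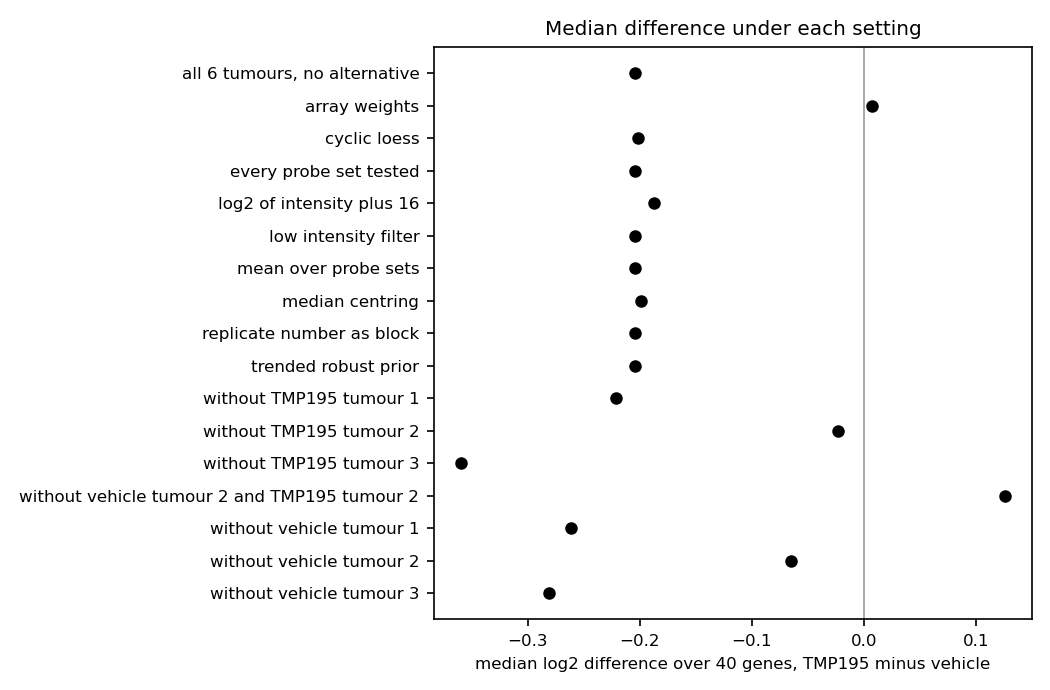
Median log2 difference (TMP195 minus vehicle, x axis) over the 40 measured mitosis and spindle genes in the fit of all 6 tumours and under each alternative (y axis); each point is 1 fit. The points stay near -0.20 under other scalings and move to between -0.36 and 0.13 when tumours are left out, with the 2 points right of 0 given by array weights and by leaving out vehicle tumour 2 and TMP195 tumour 2.

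**Figure D4:**
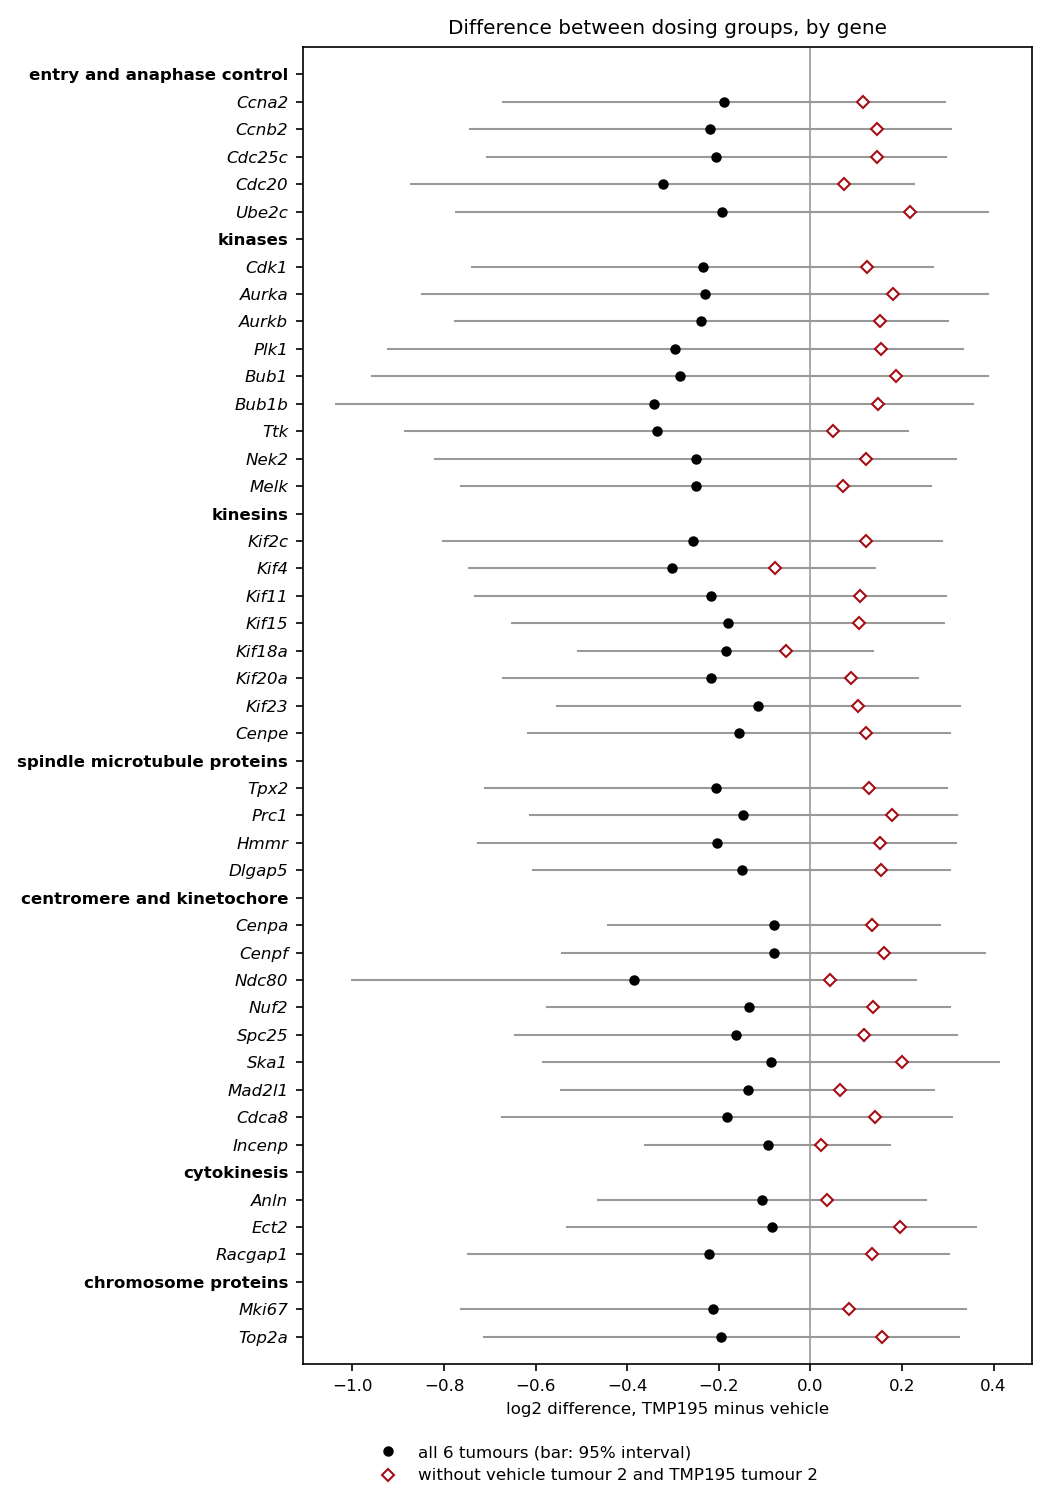
Log2 difference between TMP195 and vehicle tumours (x axis) for each of the 40 genes, grouped by role; filled circles are the fit of all 6 tumours with 95% moderated intervals as bars, and open diamonds the fit without vehicle tumour 2 and TMP195 tumour 2. All filled circles lie left of 0 with bars that cross it, and 38 open diamonds lie right of 0.

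Mitosis is entered when cyclin B activates Cdk1 and left when the anaphase-promoting complex destroys cyclin B. The 5 measured genes of this control had a median difference of -0.21, and 0.14 with vehicle tumour 2 and TMP195 tumour 2 left out. Cdc20, the activator of the anaphase-promoting complex, measured 7.78 (tumour 1), 8.29 (tumour 2) and 7.77 (tumour 3) under vehicle and 7.77, 7.17 and 7.93 in the same order under TMP195 on the log2 intensity scale. Its tumours 1 and 3 under vehicle and tumour 1 under TMP195 had a range of 0.014, and the tumours numbered 2 stood on either side, 1.11 or 2.17-fold apart. The difference of the groups was -0.32 ± 0.23 (SE, n = 3 a group; unadjusted p = 0.207, adjusted p = 1.00 in limma). Ccnb2, the cyclin B2 partner of Cdk1, measured 8.74, 9.24 and 8.71 under vehicle and 8.72, 8.29 and 9.02 under TMP195, a difference of -0.22 ± 0.22 (SE). The phosphatase gene Cdc25c, whose product removes inhibitory phosphates from Cdk1, measured 5.87, 6.46 and 6.04 under vehicle and 5.999, 5.56 and 6.20 under TMP195, a difference of -0.21 ± 0.21 (SE). In both genes the order at the top was vehicle tumour 2 and then TMP195 tumour 3, with TMP195 tumour 2 at the bottom. Ccna2, cyclin A2 of S phase and early mitosis, differed by -0.19, and Ube2c, the ubiquitin-conjugating enzyme of the anaphase-promoting complex, by -0.19. Without the tumours numbered 2 these 5 genes differed by 0.074 (Cdc20) to 0.22 (Ube2c).

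The mitotic kinases showed the widest swing between tumours. All 9 were highest in vehicle tumour 2 and lowest in TMP195 tumour 2, and the distance between these tumours had a median of 1.05, from 0.89 in Melk to 1.32 in Bub1b. Ttk, the MPS1 kinase that starts the spindle checkpoint, measured 7.01 (tumour 1), 7.44 (tumour 2) and 6.85 (tumour 3) under vehicle and 6.85, 6.33 and 7.10 in the same order under TMP195. The group difference was -0.34 ± 0.23 (SE; unadjusted p = 0.191 in limma), and it turned to 0.050 without the tumours numbered 2. Bub1b, which encodes the checkpoint protein BubR1, measured 7.54, 8.05 and 7.39 under vehicle and 7.43, 6.73 and 7.80 under TMP195. Its difference of -0.34 ± 0.29 (SE) had an interval of -1.04 to 0.35, while TMP195 tumours 2 and 3 were 1.07 apart. Melk, a kinase that peaks in mitosis, measured 7.05, 7.51 and 6.98 under vehicle and 6.85, 6.62 and 7.32 under TMP195, with a difference of -0.25 ± 0.22 (SE). In Melk, TMP195 tumour 1 also lay below the vehicle tumours. The other kinases differed by -0.28 (Bub1, a checkpoint kinase of the kinetochore), -0.30 (Plk1, which acts at centrosomes and kinetochores), -0.25 (Nek2, which separates centrosomes), -0.24 (Aurkb, the kinase of the chromosomal passenger complex), -0.24 (Cdk1, the kinase that drives mitotic entry) and -0.23 (Aurka, the Aurora kinase of the spindle poles). Without the tumours numbered 2 all 9 turned, with a median of 0.15.

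Kinesins are motors that move along microtubules and slide, shorten or link them. Of the 8 measured, 6 were highest in vehicle tumour 2 and 7 lowest in TMP195 tumour 2, with a median group difference of -0.20. Kif4, a motor of chromosome arms and of the central spindle, had the smallest unadjusted p of all 40 genes, 0.151 in limma. It measured 6.94 (tumour 1), 7.21 (tumour 2) and 6.81 (tumour 3) under vehicle and 6.53, 6.45 and 7.06 in the same order under TMP195, a difference of -0.30 ± 0.19 (SE; adjusted p = 1.00). Here TMP195 tumours 1 and 2 both lay below every vehicle tumour, and TMP195 tumour 3 lay above vehicle tumours 1 and 3. Kif18a, which dampens chromosome movement at the spindle equator, measured 6.56, 6.63 and 6.51 under vehicle and 6.31, 6.18 and 6.66 under TMP195, a difference of -0.18 ± 0.14 (SE). Its swing between the tumours numbered 2 was 0.45, the smallest among the kinesins, and TMP195 tumour 3 was the highest tumour. Kif20a, a motor needed for cytokinesis, measured 7.85, 8.33 and 7.78 under vehicle and 7.79, 7.50 and 8.03 under TMP195, a difference of -0.22 ± 0.19 (SE). Kif2c, which takes microtubules apart at centromeres, differed by -0.26, Kif11, the motor that pushes the spindle poles apart, by -0.22, and Kif15, which helps to keep them apart, by -0.18. Cenpe, the kinetochore motor that brings chromosomes to the equator, differed by -0.16. Kif23, a motor of the central spindle, differed by -0.11 and was the only member of the 40 not lowest in TMP195 tumour 2: it measured 7.17 there, 7.11 in TMP195 tumour 1 and 7.15 in vehicle tumour 3.

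The 4 non-motor proteins of the spindle followed the same tumours, all highest in vehicle tumour 2 and lowest in TMP195 tumour 2. Tpx2, which activates Aurora A and nucleates microtubules near chromosomes, measured 8.01 (tumour 1), 8.42 (tumour 2) and 8.01 (tumour 3) under vehicle and 7.96, 7.54 and 8.31 in the same order under TMP195, a difference of -0.21 ± 0.21 (SE). Hmmr, the hyaluronan-mediated motility receptor that also binds spindle poles, measured 7.96, 8.32 and 7.91 under vehicle and 7.96, 7.41 and 8.22 under TMP195, a difference of -0.20 ± 0.22 (SE). Dlgap5, also called HURP, which stabilises fibres at the kinetochore, measured 7.44, 7.83 and 7.38 under vehicle and 7.43, 7.07 and 7.70 under TMP195, a difference of -0.15 ± 0.19 (SE). In these 3 genes vehicle tumours 1 and 3 and TMP195 tumour 1 had a range of at most 0.061, and the other 3 tumours lay outside them. Prc1, which bundles microtubules at the central spindle, differed by -0.15. With TMP195 tumour 2 left out, the median of the 4 turned from -0.18 to 0.018.

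Centromere and kinetochore genes had the widest range of differences among the 7 subgroups. Their differences ran from -0.39 to -0.079 with a median of -0.14. This width rested on Ndc80, without which they ran from -0.18 (Cdca8) to -0.079 (Cenpa). Of the 9, 3 were highest in TMP195 tumour 3 rather than vehicle tumour 2. Ndc80, a subunit of the complex that grips microtubules, had the largest difference of the 40 genes and measured 7.25 (tumour 1), 7.78 (tumour 2) and 7.22 (tumour 3) under vehicle and 7.08, 6.54 and 7.47 in the same order under TMP195. Its difference was -0.39 ± 0.26 (SE; interval -1.002 to 0.23, unadjusted p = 0.183 in limma), and it was 0.044 without the tumours numbered 2. Nuf2 and Spc25, subunits of the same complex, differed by -0.14 and -0.16, and whether they differ from Ndc80 in this was not tested. Cdca8, which encodes borealin of the chromosomal passenger complex, measured 7.11, 7.46 and 7.01 under vehicle and 7.04, 6.63 and 7.36 under TMP195, a difference of -0.18 ± 0.21 (SE). Incenp, the scaffold of that complex, measured 7.76, 7.84 and 7.58 under vehicle and 7.61, 7.51 and 7.76 under TMP195, a difference of -0.093 ± 0.11 (SE). Incenp moved least of all 40 genes between the tumours numbered 2, by 0.33 or 1.25-fold, and its residual standard deviation of 0.13 was the only one below the all-gene median. Cenpa, the histone variant that marks centromeres, differed by -0.079, Cenpf, a large protein of the outer kinetochore, by -0.080, and Ska1, which couples kinetochores to microtubule ends, by -0.086. Mad2l1, the checkpoint protein MAD2 that inhibits Cdc20, differed by -0.14.

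Cytokinesis genes, which close the division furrow, differed by a median of -0.11. Racgap1, which with Kif23 forms the centralspindlin complex, measured 7.85 (tumour 1), 8.56 (tumour 2) and 7.90 (tumour 3) under vehicle and 7.87, 7.62 and 8.14 in the same order under TMP195, a difference of -0.22 ± 0.22 (SE). In Racgap1, TMP195 tumour 2 lay below and vehicle tumour 2 and TMP195 tumour 3 above the remaining 3 tumours. Vehicle tumour 2 was the farthest out, 0.68 above the mean of the other vehicle tumours, and without it the difference was 0.0055. Anln, the scaffold anillin of the furrow, measured 7.99, 8.08 and 7.71 under vehicle and 7.70, 7.69 and 8.08 under TMP195, a difference of -0.11 ± 0.15 (SE). Its low tumours were vehicle tumour 3 and TMP195 tumours 1 and 2, which lay close together. Ect2, which switches on RhoA at the furrow, differed by -0.085 and by 0.20 without the tumours numbered 2.

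Mki67 and Top2a are the genes most used to score proliferation in tumours. Mki67 encodes the Ki-67 protein that coats mitotic chromosomes, and it measured 9.91 (tumour 1), 9.85 (tumour 2) and 9.66 (tumour 3) under vehicle and 9.79, 9.04 and 9.94 in the same order under TMP195. It departed from the other members in vehicle tumour 2, which ranked below vehicle tumour 1, and TMP195 tumour 3 was highest. The difference was -0.21 ± 0.23 (SE; interval -0.76 to 0.34, unadjusted p = 0.393 in limma), and without TMP195 tumour 2 it turned to 0.064. Top2a, topoisomerase II alpha, which untangles chromosomes, measured 8.46, 8.85 and 8.50 under vehicle and 8.52, 7.95 and 8.75 under TMP195, a difference of -0.19 ± 0.22 (SE). It was the only member with a further probe set of its own, a dim one with a mean of 3.22. The dim probe set differed by -0.19, but from other tumours. It measured 3.67 in vehicle tumour 3 and 3.07 to 3.20 elsewhere, and was not lowest in TMP195 tumour 2.

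Other genes of the cell cycle were read from lists kept apart from the 41. Of 53 further mitosis genes measured, 52 were lower under TMP195 (median -0.19), against 50.5% of all genes. None had an unadjusted p under 0.05 in limma, where 1.34% of all genes were lower, and none an adjusted p under 0.05. Mastl, the Greatwall kinase, differed by -0.29 ± 0.17 (SE), Fam83d, a spindle protein, by -0.32 ± 0.19, and the centromere genes Cenpk and Cenpi by -0.37 ± 0.22 and -0.26 ± 0.18. Without the tumours numbered 2, these 4 differed by -0.090, -0.049, -0.062 and -0.049. In that fit 43 of the 53 genes were higher, against 50.7% of all genes. DNA replication genes were lower in 38 of 39 (median -0.24), against 50.5% of all genes. Of the 39, 0 passed an unadjusted p of 0.05 in limma. Tyms, which makes thymidylate for DNA, measured 7.54, 7.85 and 7.57 under vehicle and 7.36, 6.94 and 7.52 under TMP195, a difference of -0.38 ± 0.17 (SE; unadjusted p = 0.061, adjusted p = 1.00 in limma). Every TMP195 tumour lay below every vehicle tumour in 2 of the 39 genes, Tyms and the primase gene Prim2 (-0.18 ± 0.10), against 3.21% of all genes. Gins1, a subunit of the replicative helicase, differed by -0.51 ± 0.28 and Orc1, of the origin recognition complex, by -0.37 ± 0.18. Without the tumours numbered 2 the replication median was 0.035 with 24 of 39 higher, against 50.7% of all genes. Vehicle tumour 2 was the highest in 38 of 39 replication genes, against 24.2% of all genes. TMP195 tumour 2 was the lowest in 36 of 39, against 22.4%. Replication genes shared these extremes with the mitotic genes.

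Regulators of these promoters were split between the directions. Of 23 E2F, MuvB and FOXM1 regulators, 14 were lower and 9 higher (median -0.041), where 50.5% of all genes were lower. Of the 23, 0 passed an unadjusted p of 0.05 in limma, against 1.34% of all genes lower and 1.18% higher. Mybl2, which encodes B-MYB, measured 7.24, 7.88 and 7.28 under vehicle and 6.97, 6.78 and 7.51 under TMP195, a difference of -0.38 ± 0.24 (SE). It followed the mitotic genes, with vehicle tumour 2 highest and TMP195 tumour 2 lowest. Foxm1, named here for its role and not for its values, showed the same extremes, 7.23 and 6.52, and differed by -0.081. The repressive E2f7 differed by -0.23 ± 0.16, the pocket protein gene Rbl1 by -0.14 ± 0.10 and Tfdp2, a partner of E2F factors, by 0.17 ± 0.09. The groups did not overlap in 3 of the 23, higher in Tfdp2 and Lin9 and lower in Lin54, where 3.47% of all genes were higher and 3.21% lower without overlap. Lin9 and Lin54, subunits of MuvB chosen after their values were seen, differed by 0.11 and -0.061, and Lin54 ran from 7.74 to 7.82 over the 6 tumours.

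Of 15 G1 cyclins, kinases and inhibitors, 10 were lower and 5 higher (median -0.044), where 50.5% of all genes were lower. Of the 15, 0 passed an unadjusted p of 0.05 in limma, against 1.34% of all genes lower and 1.18% higher. The E-type cyclins, which act at the start of S phase, differed by -0.33 ± 0.25 (Ccne1) and -0.23 ± 0.17 (Ccne2), and the inhibitor gene Cdkn1c by -0.21 ± 0.16. Ccnd1, the cyclin D1 gene of early G1, ran the other way from the mitotic genes. It measured 9.71, 9.54 and 9.63 under vehicle and 9.69, 10.62 and 9.82 under TMP195, a difference of 0.42 ± 0.24 (SE), and was 0.13 without TMP195 tumour 2. The tumour with the least mitotic mRNA thus had the most Ccnd1 mRNA. The same tumour had the most mRNA of Cdkn2a and Cdkn2b, neighbouring genes whose products include INK4A and INK4B, which block the kinases of cyclin D. Different transcripts of Cdkn2a were not told apart here. Cdkn2a measured 5.07, 5.89 and 5.31 under vehicle and 5.15, 7.33 and 4.94 under TMP195, and Cdkn2b 5.97, 5.90 and 5.65 under vehicle and 5.69, 7.87 and 5.64 under TMP195. TMP195 tumour 2 exceeded the median of the other 5 tumours by 2.18 in each, or 4.53-fold and 4.55-fold. These inhibitor genes were singled out after their values had been seen, and their part in the low mitotic genes was not tested.

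**Figure D5:**
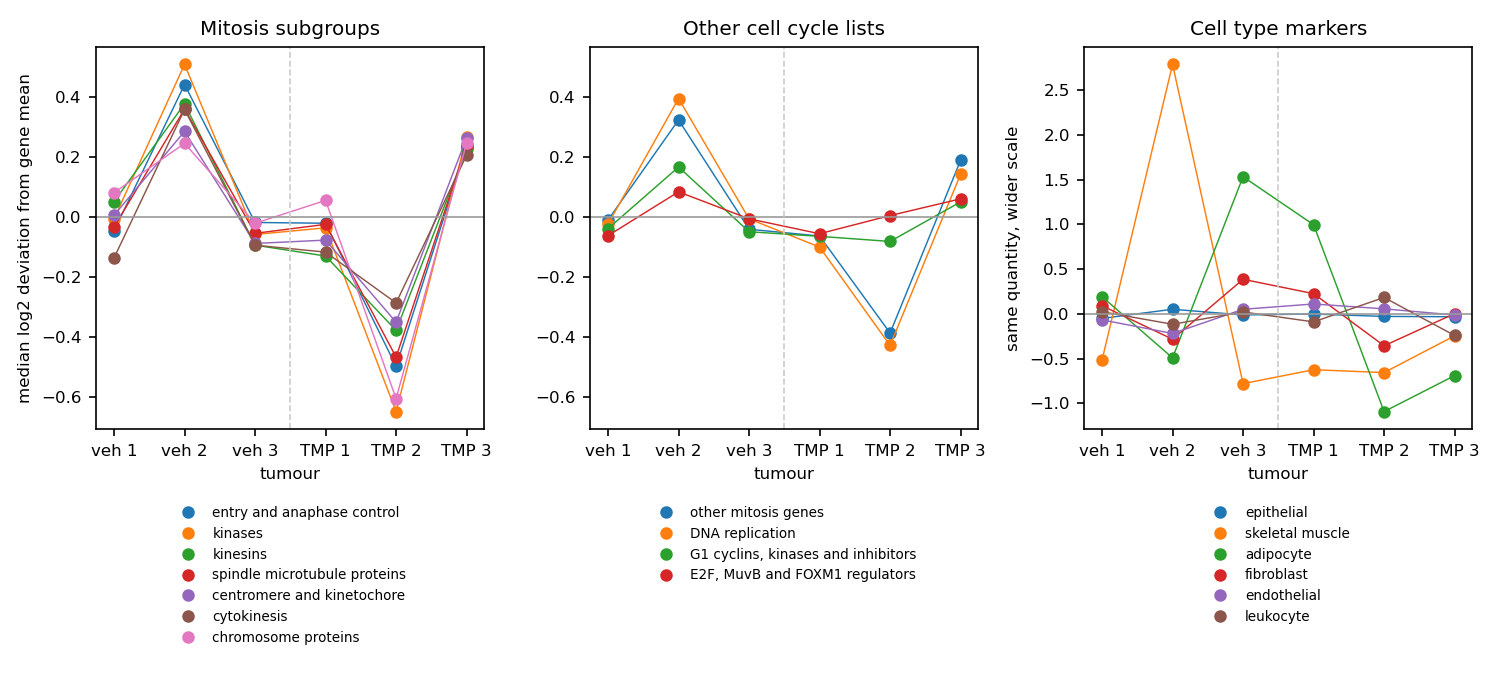
Median log2 deviation from each gene's mean over 6 tumours (y axis) for every tumour (x axis) in the 7 subgroups of mitosis and spindle genes (left), in 4 other cell cycle lists (middle, same scale) and in 6 lists of cell type markers (right, wider scale); points are list medians, joined only to guide the eye. All but the 2 chromosome proteins among the mitosis subgroups, the further mitosis genes and the replication genes peak in vehicle tumour 2, and all of them dip in TMP195 tumour 2, whereas the median of the epithelial markers stays near 0, between -0.051 and 0.051.

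Markers of cell types were read beside the mitotic genes in the same tumours. Markers of the mammary epithelium were bright in every tumour: all 12 epithelial markers, Epcam, Cdh1 and keratin genes among them, were measured, and their mean log2 intensity was 9.84 (tumour 1), 10.004 (tumour 2) and 9.89 (tumour 3) under vehicle and 9.85, 9.95 and 9.84 in the same order under TMP195. Single epithelial markers varied in both directions, which the list mean evens out: vehicle tumour 2 minus TMP195 tumour 2 ran from -0.84 in Krt7 to 0.92 in Cldn4. Of the 12, 6 had a lower and 6 a higher mean under TMP195, from -0.48 to 0.23, and Cldn4, a tight junction gene, was the 1 marker with an unadjusted p under 0.05 in limma (0.042), where 1.34% of all genes were lower. The mean of the mitotic genes ran from 7.12 in TMP195 tumour 2 to 7.95 in vehicle tumour 2. Skeletal muscle markers did separate vehicle tumour 2: the mean of the 12 genes was 7.95 there and 4.43 to 4.92 in the other 5 tumours. Adipocyte markers (11 of 12 measured) were lowest in TMP195 tumour 2, with means of 7.09 (tumour 1), 6.24 (tumour 2) and 8.41 (tumour 3) under vehicle and 7.76, 5.20 and 6.18 in the same order under TMP195. Their mean was lower under TMP195 in all 11, as in 50.5% of all genes, and 1 of them, the leptin gene Lep, had an unadjusted p under 0.05 in limma (0.038), where 1.34% of all genes were lower. Fibroblast markers were lowest in the same pair, 8.83 in vehicle tumour 2 and 8.76 in TMP195 tumour 2, where the mitotic genes stood at opposite ends. Leukocyte markers (11 of 12 measured) ran from 5.71 to 6.11, with the highest mean in TMP195 tumour 2. That tumour was the highest in 6 of the 11, against 5072 of all 19937 genes. Single leukocyte markers varied in both directions, with vehicle tumour 2 minus TMP195 tumour 2 from -0.75 to 1.49. Endothelial markers ran from 6.43 to 6.77. The part of these cell types in the level of the mitotic genes was not tested.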

How the data were processed

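RNA from 6 tumours was measured on Affymetrix arrays. Total RNA, treated with DNase, carried a biotin label, per the labels' protocols. The submitters' processing notes name RMA and Affymetrix Power Tools (version not given in the sources used here), and the authors deposited 1 intensity per probe set and tumour. RMA as usually run quantile normalizes arrays, which would hide a shift of most genes. The scale is not stated. Medians from 44.8 to 46.4 and highest values from 8137 to 8873 are those of linear intensity, so log2 was taken. Scanner files were not used here, and the number of arrays limits precision.

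Of 27359 probe sets, 21784 had 1 gene symbol in the platform annotation, 1620 several and 3955 none. Symbols were checked by Entrez ID against RefSeq GRCm38.p6 (21693 found, 0 changed). The brightest probe set stood for each of 19937 genes. All genes entered 1 limma fit on log2 values (version 3.58.1, R 4.3.3, lmFit and eBayes; prior degrees of freedom 2.93, residual 4), two-sided, TMP195 minus vehicle, no covariate, Benjamini-Hochberg over all genes. The fit was tested on simulated data. Intervals are 95% moderated. Promoters were searched and plots drawn with Python 3.11.15, pandas 2.3.3 and matplotlib 3.10.9.

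The members, the gene lists, the rule for named genes and the alternatives were chosen with earlier results of these data known. Every member is named. Values by tumour are given for the 3 members of each subgroup with the smallest unadjusted p (2 in subgroups of under 4), and for each other cell cycle list the 4 genes with the smallest p are named. No filter on low intensity was used, and no member lay below the 30th percentile.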

Additional observations from a re-analysis of the deposited data

How the results depend on the processing

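The count of members past an adjusted p of 0.05 in limma was 0 under all 16 alternatives, and 0 passed an unadjusted p of 0.05 in the fit of all tumours. Member adjusted p values ran from 0.963 to 1.00 over them. The count of members with a lower mean was 40 with the trended robust prior, median centring, cyclic loess, the filter on the lowest 30% of intensity, every probe set tested, means over probe sets, log2(intensity + 16) and the replicate number as a block. Of these, the prior, the filter, every probe set tested and the block could not change a member's difference. Means over probe sets could change only that of Top2a. The count was 16 with array weights, where the median turned to 0.00728, and 2 without vehicle tumour 2 and TMP195 tumour 2, where it turned to 0.13. Leaving out each tumour in turn gave counts from 24 to 40 and medians from -0.36 to -0.023. The tumours share only a number and were not treated as paired in the main fit. Deviations of same-numbered tumours correlated at -0.21, -0.063 and -0.10. The block left the count of calls at 0. It could not change the median of -0.20, because each number occurs once in each group.

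Without vehicle tumour 2 and TMP195 tumour 2 the sign turned in Ccna2 (0.11), Ccnb2 (0.15), Cdc25c (0.14), Cdc20 (0.074), Ube2c (0.22), Cdk1 (0.12), Aurka (0.18), Aurkb (0.15), Plk1 (0.15), Bub1 (0.19), Bub1b (0.15), Ttk (0.050), Nek2 (0.12), Melk (0.072), Kif2c (0.12), Kif11 (0.11), Kif15 (0.11), Kif20a (0.089), Kif23 (0.10), Cenpe (0.12), Tpx2 (0.13), Prc1 (0.18), Hmmr (0.15), Dlgap5 (0.15), Cenpa (0.13), Cenpf (0.16), Ndc80 (0.044), Nuf2 (0.14), Spc25 (0.12), Ska1 (0.20), Mad2l1 (0.064), Cdca8 (0.14), Incenp (0.023), Anln (0.037), Ect2 (0.20), Racgap1 (0.13), Mki67 (0.084), Top2a (0.16), Cdkn1c (0.013), Ccne1 (0.059), Birc5 (-0.044), Cdkn2a (-0.14), Cdkn2b (-0.15) and Foxm1 (0.23). With array weights it turned in Ccna2 (0.027), Ccnb2 (0.0045), Ube2c (0.034), Aurka (0.021), Plk1 (0.00084), Kif11 (0.0073), Kif15 (0.042), Kif23 (0.060), Cenpe (0.059), Prc1 (0.039), Hmmr (0.018), Dlgap5 (0.044), Cenpa (0.071), Cenpf (0.077), Nuf2 (0.058), Spc25 (0.018), Ska1 (0.11), Mad2l1 (0.00026), Cdca8 (0.034), Incenp (0.014), Anln (0.047), Ect2 (0.077), Mki67 (0.020), Top2a (0.0073), Cdkn2a (-0.0092) and Foxm1 (0.11). These alternatives leave out or count less the tumours that stand apart. Leaving out single tumours turned the sign of the genes that follow, with ranges of -0.47 to 0.045 for Aurka, -0.10 to 0.46 for Birc5, -0.36 to 0.0089 for Cdca8, -0.38 to 0.82 for Cdkn2a, -0.18 to 0.94 for Cdkn2b, -0.19 to 0.044 for Cenpa, -0.32 to 0.038 for Cenpe, -0.26 to 0.14 for Cenpf, -0.30 to 0.014 for Dlgap5, -0.24 to 0.073 for Ect2, -0.23 to 0.10 for Foxm1, -0.38 to 0.023 for Hmmr, -0.25 to 0.048 for Kif23, -0.39 to 0.064 for Mki67, -0.46 to 0.012 for Nek2, -0.30 to 0.0067 for Nuf2, -0.28 to 0.035 for Prc1, -0.35 to 0.0055 for Racgap1, -0.25 to 0.11 for Ska1, -0.35 to 0.059 for Spc25, -0.37 to 0.034 for Top2a and -0.36 to 0.073 for Ube2c.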

Other observations

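TMP195 tumour 2 was the lowest in 46 of the 53 further mitosis genes and in 36 of the 39 replication genes. It was the highest in 1 gene of each list, Birc5 and Tk1. Of the 53 further mitosis genes, Birc5, which encodes survivin of the chromosomal passenger complex, was the only one with a higher mean under TMP195, and of the 39 replication genes Tk1, thymidine kinase, was the only one. Tk1 measured 8.14, 7.77 and 7.43 under vehicle and 7.57, 9.83 and 8.13 under TMP195, and Birc5 7.69, 7.64 and 7.22 under vehicle and 7.22, 8.36 and 7.60 under TMP195. In both, TMP195 tumour 2 was the highest of the 6 tumours, 2.06 and 0.76 above the median of the other 5, although its mitotic genes were the lowest. Without that tumour Tk1 differed by 0.069 and Birc5 by -0.10.

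Tk1 and Birc5 are near neighbours on chromosome 11 in the RefSeq gene order of GRCm38.p6, with Afmid between them on the array. Among the 17 array genes from 8 before to 8 after Tk1, 12 were at least 0.5 higher in TMP195 tumour 2 than the median of the other 5 tumours, against 5.96% of all genes, and 10 were at least 1 higher, against 1.51%. Tk1 and Birc5, whose values led to this stretch, are among them; of the other 15 genes, 10 were at least 0.5 and 9 at least 1 higher. The raised neighbours are not division genes by name: Tmc6, a transmembrane channel-like gene, stood 1.77 above, Pgs1, an enzyme of phospholipid synthesis, 1.35, and Socs3, an inhibitor of cytokine signalling, 1.26. The other 5 tumours lay between 6.84 and 7.28 in Tmc6, where TMP195 tumour 2 measured 8.78. The stretch was examined after the values of Tk1 and Birc5 had been seen. What raised it was not tested.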
